A study of Mus musculus with 2 samples.

Results

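The salivary ion, water and calcium transport genes are 33 genes for the channels, pumps, exchangers and calcium-handling proteins with which a salivary epithelium makes and modifies saliva. They were chosen by gene name, each was read from its brightest probe, and they stand among 21346 genes that at least 1 array measured well above background. Expression had been measured on Agilent mouse arrays of 1 colour in cells sorted with magnetic beads for EpCAM, a surface protein of epithelial cells. The cells came from female C57BL/6 mice (C57BL/6N per the methods), from the submandibular gland. The question of the comparison was how expression in these cells differs with age: 1 array held RNA from mice of 9 weeks (young) and 1 array held RNA from mice of 24 months (aged). Per the methods, the young mice were bought and the aged mice were kept at the institute's own facility, so age and source cannot be told apart, and neither can age and array. A single array per age allowed neither a test nor a p-value. The error printed after a difference is the scanner software's error model for the 2 spots compared, which covers neither the animals nor the sort.

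In a salivary acinus, the basolateral cotransporter Slc12a2 loads the cell with Cl-, and a rise of cytosolic Ca2+, started by Ca2+ release through IP3 receptors, opens the apical Cl- channel Ano1 and K+ channels such as Kcnn4 and Kcnma1. Na+ and water follow the Cl-, the water largely through the apical water channel Aqp5. The Na+,K+-ATPase keeps up the gradients, and the ducts then take back Na+ and Cl- through the epithelial Na+ channel and Cftr while they add K+ and bicarbonate.

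All 33 genes had at least 1 probe on the array, and for 32 of them both arrays gave a signal well above background. None of these 32 differed by 2-fold in either direction. Over all 18745 genes measured on both arrays, 1.52% reached 2-fold higher and 3.05% reached 2-fold lower values in the aged cells, so 0 of 32 is near the background share and is no result about these genes. Their log2 differences (aged minus young, after each array was divided by its 75th percentile) ran from -0.68 to 0.60, with a median of 0.06 and quartiles of -0.16 and 0.41. Over all genes the median was 0.09, with quartiles of -0.17 and 0.34. Of the 32, 17 lay above 0 (53.1%, against 59.9% of all genes) and 15 below, and 14 lay within 0.2 of 0 (43.8%, against 38.7%).

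All 6 general epithelial markers (Epcam, Cdh1, Cldn3, Cldn7, Krt8, Krt18) were well above background on both arrays, with differences of -0.04 to 0.21. So were all 12 acinar markers. Of all non-control spots, 55.4% (young) and 50.8% (aged) were well above background. The presence of these markers cannot show how well the sort worked, because there was no array of unsorted gland to compare with. Markers of other cells were present too, and some were lower on the aged array: all 6 macrophage and dendritic cell markers (summed signal 35177 young and 10129 aged), the 5 fibroblast markers measured on both arrays (summed over the 6 listed, 4772 and 1723) and 8 of the 9 endothelial markers measured on both arrays (summed over the 10 listed, 3585 and 1949). These sums are of signal before the division by the 75th percentile, which was 256 (young) and 198 (aged). They therefore overstate how much lower the scaled signal was in the aged cells. Of the 8 basal and myoepithelial markers, Cnn1, Myl9 and Myh11 were lower as well, but 4 of the 8 lay above 0. The plasma cell marker Jchain was lower (-1.78), but Xbp1 was at 0.55, Prdm1 at -0.05 and Sdc1 at -0.22. The neutrophil markers S100a8 and S100a9 were measured on the aged array alone, at least 3.98-fold and 14.0-fold higher. Ly6g (-0.18) and Elane (0.24), measured on both arrays, did not share this, and neither array measured Mpo. Fewer cells of a type and less RNA per cell cannot be told apart in such bulk RNA.

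**Figure D1:**
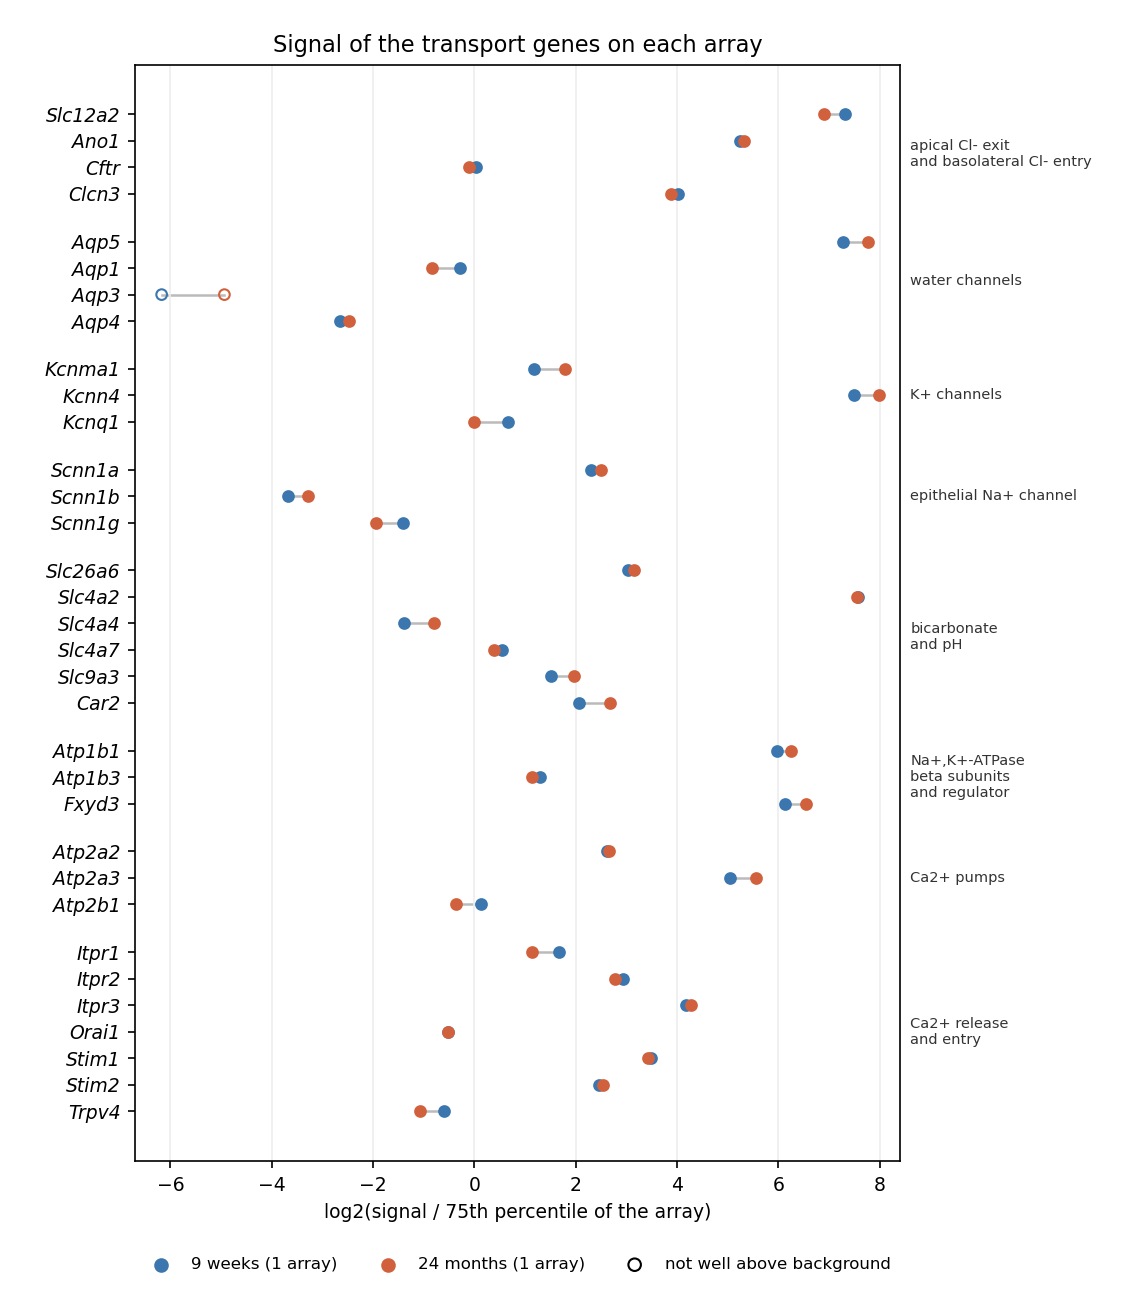
Signal of each of the 33 genes on the 2 arrays, as log2 of the signal over the array's 75th percentile (x axis), grouped by role; blue points are the 9-week array and orange points the 24-month array, 1 array each. Aqp3, drawn with open points, stayed at background on both, and the other 32 pairs of points lie within 0.68 of each other.

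A few probes are printed because the text refers to their values, and each has at least 1 reading frame with no stop codon over its 60 bases. No base is set in capitals. The sequences are the deposited probe sequences, in the direction of the transcript, with positions on NCBI37 (mm9).

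Aqp5, chr15:99424655-99424714, + strand: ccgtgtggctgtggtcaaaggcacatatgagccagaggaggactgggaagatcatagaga

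Kcnn4, chr7:25166737-25167195, + strand, over an exon junction: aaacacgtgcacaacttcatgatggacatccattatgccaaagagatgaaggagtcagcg

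Fxyd3, chr7:31856204-31856356, - strand, over an exon junction: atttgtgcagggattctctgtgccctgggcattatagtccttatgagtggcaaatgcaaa

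Kcnma1, chr14:24255239-24261264, - strand, over an exon junction: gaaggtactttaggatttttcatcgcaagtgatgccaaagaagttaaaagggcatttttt

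Itpr1, chr6:108187033-108191269, + strand, over an exon junction: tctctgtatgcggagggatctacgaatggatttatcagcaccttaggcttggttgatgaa

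Orai1, chr5:123479321-123479380, + strand: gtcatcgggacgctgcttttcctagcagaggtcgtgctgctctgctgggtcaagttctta

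The 4 genes of Cl- entry and exit had differences of -0.42 to 0.08. Slc12a2, which brings Na+, K+ and Cl- into the cell from the blood side, gave a signal of 40948 ± 4095 in the young and 23619 ± 2362 in the aged cells, a log2 difference of -0.42 ± 0.20 (1.34-fold lower). Ano1, the Ca2+-activated Cl- channel of the apical membrane, gave 9720 and 7942, a difference of 0.08 ± 0.20. At this scaling the entry gene was lower in the aged cells by about 2 times its error. The exit channel differed by less than its error. Over the 7 scalings compared below, Slc12a2 ran from -0.9997 to -0.25 and Ano1 from -0.43 to 0.26. The sign of Ano1 therefore depended on the scaling. Cftr, the cAMP-activated Cl- and bicarbonate channel, gave 262 and 184 (difference -0.14 ± 0.21), and the other 2 of its 3 probes stayed at background on both arrays. Clcn3, an endosomal Cl-/H+ exchanger, gave 4172 and 2929 (difference -0.14 ± 0.20), and its 4 probes measured on both arrays ranged from -0.14 to 0.57.

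Among the water channels, Aqp5 was above and Aqp1 below 0, except that quantile normalization and loess put Aqp5 slightly below 0 too. Aqp5, the apical water channel of acinar cells, gave 39817 ± 3982 in the young and 43188 ± 4319 in the aged cells, a difference of 0.49 ± 0.20 (1.40-fold higher). Its second probe, printed above, gave 10152 and 11149, a difference of 0.51, so both probes of Aqp5 agreed to within 0.02. Aqp1, the water channel of capillary endothelium and red cells, gave 210 and 111, a difference of -0.55 ± 0.21 (1.46-fold lower). The endothelial markers moved with it: of the 10 listed, 9 were measured on both arrays, with a median difference of -0.55 and a range of -0.64 to 0.10 (Kdr -0.64, Egfl7 -0.61, Cdh5 -0.57, Pecam1 0.10), and Tek was well above background on the young array only. Red cell markers did not show this, with 5 of 6 above 0 and a median of 0.25 (Hba-a1 0.24). Other lists were lower as well: all 6 macrophage and dendritic cell markers, the 5 fibroblast markers measured on both arrays, and 3 of the 8 basal and myoepithelial markers by at least 2-fold, although 4 of those 8 lay above 0. The part of the endothelial or any of these other cells in the Aqp1 value was not tested. Aqp4, a basolateral water channel of many epithelia and of astrocytes, gave 40.8 and 35.5 with 1 of its 4 probes (difference 0.17 ± 0.29). Aqp3, a basolateral aquaporin that also passes glycerol, gave 3.55 and 6.47, below the lowest signals well above background (14.1 young and 14.3 aged), so no difference is given for it.

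The K+ channels held both the largest negative difference of the 32 genes and one of the largest positive ones. Kcnn4, the intermediate-conductance Ca2+-activated K+ channel of acinar cells, gave 45910 ± 4591 and 50424 ± 5042, a difference of 0.51 ± 0.20, and its 3 probes lay between 0.45 (the probe printed above) and 0.53. Kcnma1, the large-conductance Ca2+-activated K+ channel, gave 581 and 680, a difference of 0.60 ± 0.20 (1.52-fold higher). Kcnq1, a voltage-gated K+ channel of epithelial membranes, gave 407 and 197, a difference of -0.68 ± 0.21 (1.60-fold lower). Kcnn4 was thus higher by every probe, although not under quantile normalization or loess, while Kcnma1 and Kcnq1 depended on the probe: the 6 Kcnma1 probes ran from -0.34 to 0.60, with 0.52 for the probe over the exon junction, and the 3 Kcnq1 probes measured on both arrays ran from -0.68 to -0.08. A dim Kcnq1 probe for an Ensembl transcript, well above background in the aged cells alone, ran the other way (13.0 and 18.6, with a limit of 0.78 on the log2 scale). The Kcnma1 probes span 232436 bases of chr14, and the files assign each to another transcript.

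The 3 subunits of the epithelial Na+ channel, which takes up Na+ across the apical membrane of duct cells, differed in sign. Scnn1a (alpha subunit) gave 1265 and 1124, a difference of 0.20 ± 0.20, with 0.13 for its second probe. Scnn1b (beta subunit) gave 19.9 and 20.4, close to the dimmest signals that count as measured (14.1 and 14.3), and a difference of 0.41 ± 0.41. Scnn1g (gamma subunit) gave 96.2 and 51.7, a difference of -0.52 ± 0.24. At this scaling the gamma subunit was the only one of these 3 whose difference was larger than 2 times its error. That value rests on 1 probe. Over the 7 scalings compared below it ran from -0.78 to -0.15, and the -0.15, under normexp background correction, is smaller than the error.

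Of the 6 genes for bicarbonate transport and pH, 3 lay near 0.5 and the others within 0.2 of 0. Car2, the cytosolic carbonic anhydrase that makes bicarbonate and protons from CO2, gave 1071 ± 107 and 1258 ± 126, a difference of 0.60 ± 0.20 (1.52-fold higher). Slc4a4, the electrogenic Na+-bicarbonate cotransporter, gave 98.1 and 113 (difference 0.58 ± 0.21), with 0.56 for its second measured probe. Slc9a3, an apical Na+/H+ exchanger, gave 735 and 776 (difference 0.45 ± 0.20). The Slc9a3 value rests on a probe that the files assign to an Ensembl transcript only: the probe for the RefSeq transcript gave 3.75 and 3.09, at background in both. Slc4a2, the basolateral Cl-/bicarbonate exchanger, was among the brightest of the set and lay at 48637 and 37119, a difference of -0.02 ± 0.20. Slc4a7, an electroneutral Na+-bicarbonate cotransporter, gave 376 and 258 (difference -0.17 ± 0.21). Slc26a6, an apical anion exchanger, gave 2087 and 1768 (difference 0.13 ± 0.20), and its brightest probe lies 51612 bases from the nearest of its other 2 probes, which gave 0.04 and 0.19. Whether that brightest probe reads Slc26a6 was not settled. The other 2 are dimmer, at 332 and 293 (difference 0.19) and at 118 and 93.6 (difference 0.04).

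The Na+,K+-ATPase genes of the set are the beta subunits, which carry the pump to the membrane, and a FXYD protein, which modulates it. Atp1b1 gave 16008 and 14996, a difference of 0.28 ± 0.20. Atp1b3 gave 624 and 436, a difference of -0.15 ± 0.20, and its 3 probes ran from -0.35 to -0.01. Fxyd3 gave 18005 ± 1800 and 18558 ± 1856 at the probe printed above, a difference of 0.42 ± 0.20. Atp1b1 and Fxyd3 turned negative under quantile normalization and loess. A second Fxyd3 probe over another junction gave 0.46, while a dim probe for an Ensembl transcript gave 0.02.

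The Ca2+ pumps each stood apart. Atp2a3, a SERCA pump that returns Ca2+ to the endoplasmic reticulum, gave 8445 ± 844 and 9329 ± 933, a difference of 0.52 ± 0.20 (1.43-fold higher, but -0.02 at the lowest of 7 scalings). Atp2a2, the widely expressed SERCA pump, gave 1567 and 1248 (difference 0.04 ± 0.20), with probes from -0.36 to 0.04. Atp2b1, which pumps Ca2+ out across the plasma membrane, gave 279 and 154, a difference of -0.48 ± 0.21, and its second probe gave -0.66. Both Atp2b1 probes were thus lower in the aged cells.

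Of the 7 genes of Ca2+ release and entry, 5 lay within 0.2 of 0. Orai1, the pore of store-operated Ca2+ entry, gave 178 and 138 at its single probe, printed above, a difference of 0.00 ± 0.21. Its store sensors Stim1 (2856 and 2124, difference -0.06 ± 0.20) and Stim2 (1410 and 1147, difference 0.07 ± 0.20) were as close to 0. At their brightest probes, these 3 genes therefore differed by less than the error. Of the other Stim1 probes measured on both arrays, 1 gave 0.07 and a dim one gave -0.50 ± 0.25 (63.2 and 34.4). Among the IP3 receptors, the channels that release Ca2+ from the endoplasmic reticulum, Itpr3 gave 4657 and 3828 (difference 0.09 ± 0.20) and Itpr2 gave 1945 and 1346 (difference -0.16 ± 0.20). Itpr1 gave 810 ± 81.1 and 437 ± 43.8, a difference of -0.52 ± 0.20 (1.43-fold lower). The lower Itpr1 value was not shared by its other 3 probes, which gave -0.03 (the probe printed above), -0.02 and 0.05 at signals below 90 on both arrays. Trpv4, a Ca2+-permeable cation channel opened by swelling and warmth, gave 170 and 94.5 (difference -0.47 ± 0.21), and its second, dimmer probe gave 0.52 ± 0.27, so the sign for Trpv4 turned with the probe.

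**Figure D2:**
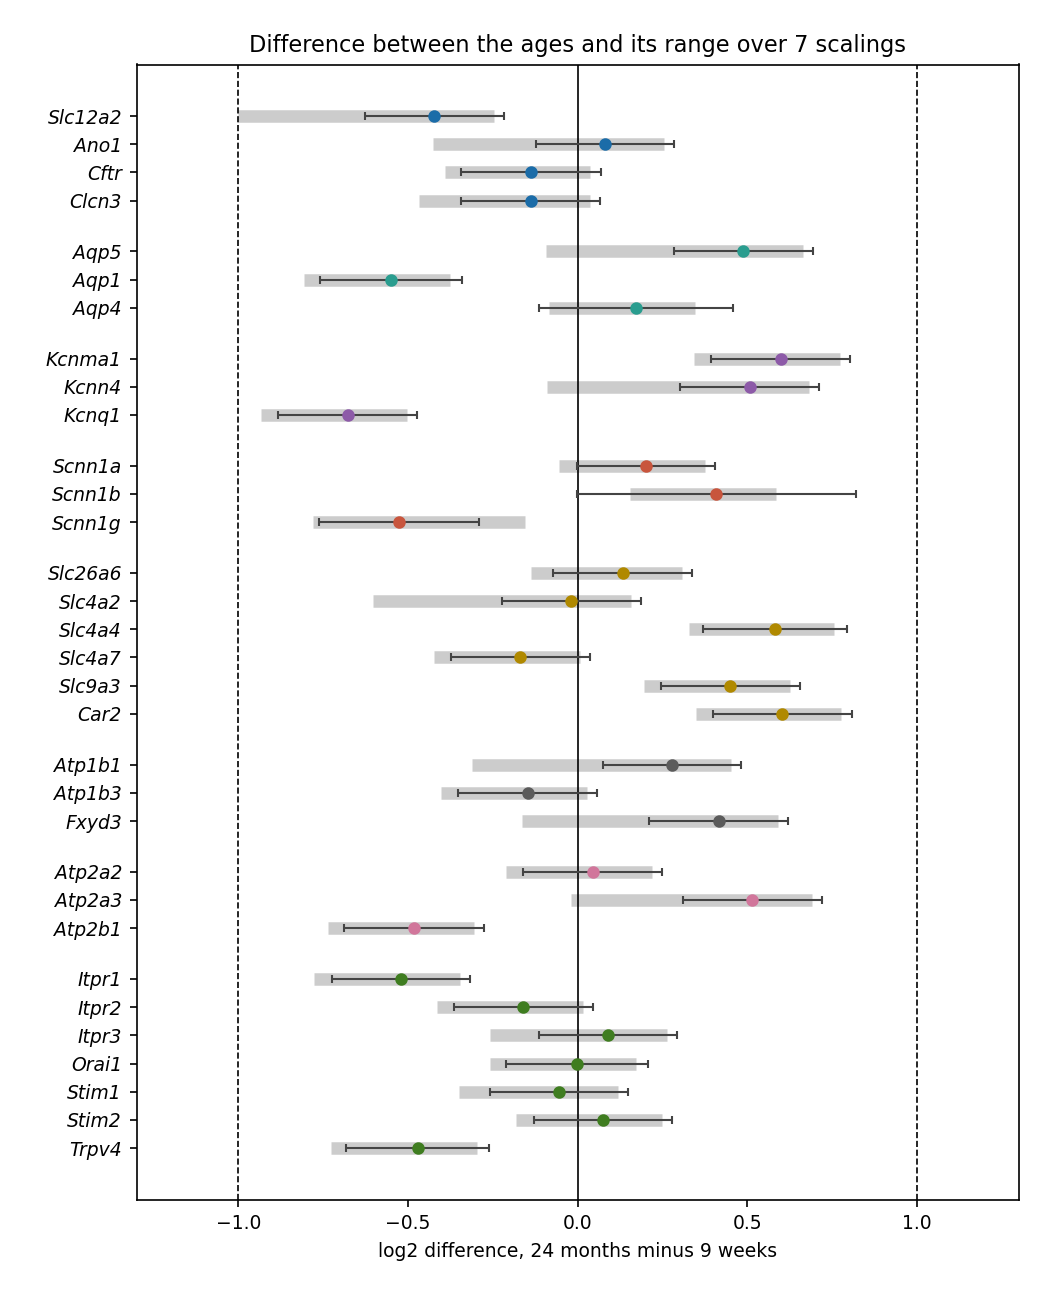
Log2 difference (24 months minus 9 weeks, x axis) of the 32 genes measured on both arrays; points are the values after division by the 75th percentile, thin bars the scanner software's error and grey bands the range over 7 scalings of the arrays. No point reaches the dashed 2-fold lines, and the grey bands of 12 genes stay on one side of 0.

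The sign of most small differences depended on how the arrays were scaled to each other. The scalings compared with division by the 75th percentile were quantile normalization, loess, normexp background correction, spike-in controls, centring on the median and a 75th percentile taken only over probes that both arrays measured, and they moved the median of all genes by -0.26 to 0.17. Under all 7 scalings, 5 genes were higher in the aged cells (Kcnma1, Scnn1b, Slc4a4, Slc9a3 and Car2) and 7 were lower (Slc12a2, Aqp1, Kcnq1, Scnn1g, Atp2b1, Itpr1 and Trpv4). A sign shared by the scalings says nothing about the probes. Kcnma1, Itpr1 and Trpv4 had probes of both signs, Scnn1b was close to the dimmest measured signals, and the RefSeq probe of Slc9a3 was at background. Slc12a2 ranged from -0.9997 under quantile normalization to -0.25 under centring on the median, and was -1.03, past 2-fold, under the loess on probes well above background that was added later. Car2 ranged from 0.35 to 0.78, Aqp1 from -0.81 to -0.38 and Kcnq1 from -0.93 to -0.50. For the bright genes Aqp5 (-0.09 to 0.66), Kcnn4 (-0.09 to 0.68), Fxyd3 (-0.17 to 0.59) and Atp1b1 (-0.31 to 0.45) the sign flipped, negative under quantile normalization and loess. Atp2a3 (-0.02 to 0.69) reached the other side of 0 under 1 scaling only.

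Over the whole arrays, the difference was larger among the brighter genes. Over all genes with a mean level of 6 to 12 on the log2 scale (706 genes) the median difference was 0.45, with quartiles of 0.20 and 0.66, against 0.17 over the 3217 genes at 2 to 4, 0.07 over the 4715 at 0 to 2, -0.02 over the 4968 at -2 to 0 and 0.04 over the 3725 at -5 to -2. The limits of the signal ranges were set after the values were seen. Read against genes of like signal, Aqp5, Kcnn4, Fxyd3, Atp1b1 and Atp2a3 lay between the quartiles of their range. Car2, Kcnma1, Slc4a4, Slc9a3 and Scnn1b lay above the upper quartile, 5 of the 32 genes. Below the lower quartile lay 14 of the 32, of which 12 stayed above the 5th percentile (Ano1, Clcn3, Aqp1, Scnn1g, Slc4a2, Slc4a7, Atp2b1, Itpr1, Itpr2, Itpr3, Stim1 and Trpv4). By construction 25% of all genes lie below the lower quartile and 25% above the upper one. The 14 of 32 are above that share and the 5 of 32 below it, and this was not tested. Slc12a2 and Kcnq1 lay below the 5th percentile (-0.14 and -0.62 in their ranges), and no gene of the set lay above the 95th. By construction 10% of all genes lie outside these limits, so 2 of 32 is near that share.

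**Figure D3:**
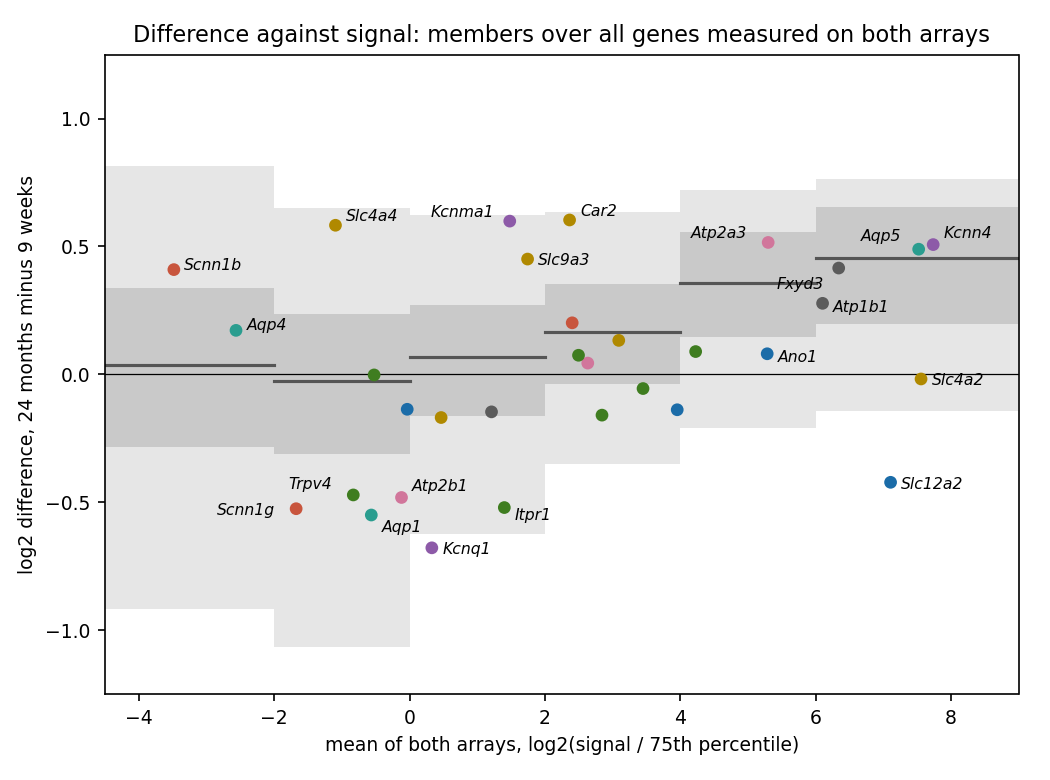
Log2 difference (24 months minus 9 weeks, y axis) against the mean log2 signal over the 75th percentile of both arrays (x axis); points are the 32 genes, coloured by role, and behind them the median (line), quartiles (dark grey) and 5th to 95th percentile (light grey) of all genes in 6 ranges of signal. The grey medians lie near 0 in the 3 dimmest ranges and rise over the brighter ones, and Slc12a2 lies below the light grey area at the right.

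Slc12a2 can also be set against genes of its own signal range, where a scaling constant drops out, a comparison chosen after the values were seen. The other 5 genes of the set in that range (Aqp5, Kcnn4, Slc4a2, Atp1b1 and Fxyd3) had a median difference of 0.42 and a range of -0.02 to 0.51, and Slc12a2 lay 0.84 below that median. The gap between Slc12a2 and Aqp5 was -0.91, which is a 1.88-fold change of their ratio. Scalings by a constant leave this gap unchanged by construction. It ran from -0.94 to -0.88 under quantile normalization, loess, normexp and a loess on probes well above background added after the data were seen. These move 2 bright genes of like signal nearly alike, so the narrow range is no check of the gap. Of the 706 genes in the range, 8 lay lower than Slc12a2. Fxyd2, the gamma subunit of the Na+,K+-ATPase, which is no member but is named for its like position, gave 32906 and 20530, a difference of -0.31, below the 5th percentile of the same range. A shift in the ratio of Slc12a2 to Aqp5 shows that the 2 signals changed unequally, not which of them changed. Slc12a2 has 1 probe on the array, so its value could not be checked by a second one.

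The markers of the cell types that hold these transporters differed among themselves. The 12 genes listed as acinar markers, among them the member Aqp5 itself, had a median of 0.44, with Bpifa2 at 1.52, Muc19 at -0.89 and Smgc at -1.79. Of these 12, 9 lay above 0. Their summed signal, not scaled, was 2348720 in the young and 2512940 in the aged cells. The 8 granular duct markers had a median of -0.11 and unscaled sums of 584862 and 431470, with Egf at -0.47 and Klk1 at -0.10. Because neither pair of sums was divided by the 75th percentiles (256 and 198), both read too low for the aged cells. The medians are of scaled values. Of the 8 striated or excretory duct markers, 6 were measured on both arrays, 5 of them above 0, with a median of 0.21 and Krt7 at 0.54. Of the 8 basal and myoepithelial markers, 3 were at least 2-fold lower (Cnn1 -2.14, Myl9 -1.89 and Myh11 -1.83), while Krt14 was at 0.25 and Acta2 at -0.08. The probes of Myh11 ran from -1.83 to 0.12 and those of Acta2 from -1.96 to -0.08, so both values depended on the probe. None of these 4 lists had all its markers on one side of 0, and the part of the acinar or duct cells in the values of Slc12a2, Scnn1g or Kcnq1 was not tested.

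For 17 genes several probes were measured on both arrays. The spread between them was larger than the gene's difference in 10 genes and smaller in 7, among them Aqp5, Kcnn4, Slc4a4 and Atp2b1. In 10 genes all probes had the same sign, and in 7 (Clcn3, Kcnma1, Atp2a2, Itpr1, Itpr2, Stim1 and Trpv4) they did not. The median spread between the highest and lowest probe was 0.40 and the largest, in Trpv4, was 0.99. Of all 82 probes for the 33 genes, 65 had a signal well above background on each array, and none of these differed by 2-fold. In comparison, repeated spots of 1 probe varied little: over 285 probes spotted 10 times, the SD of the difference between spots had a median of 0.03.

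**Figure D4:**
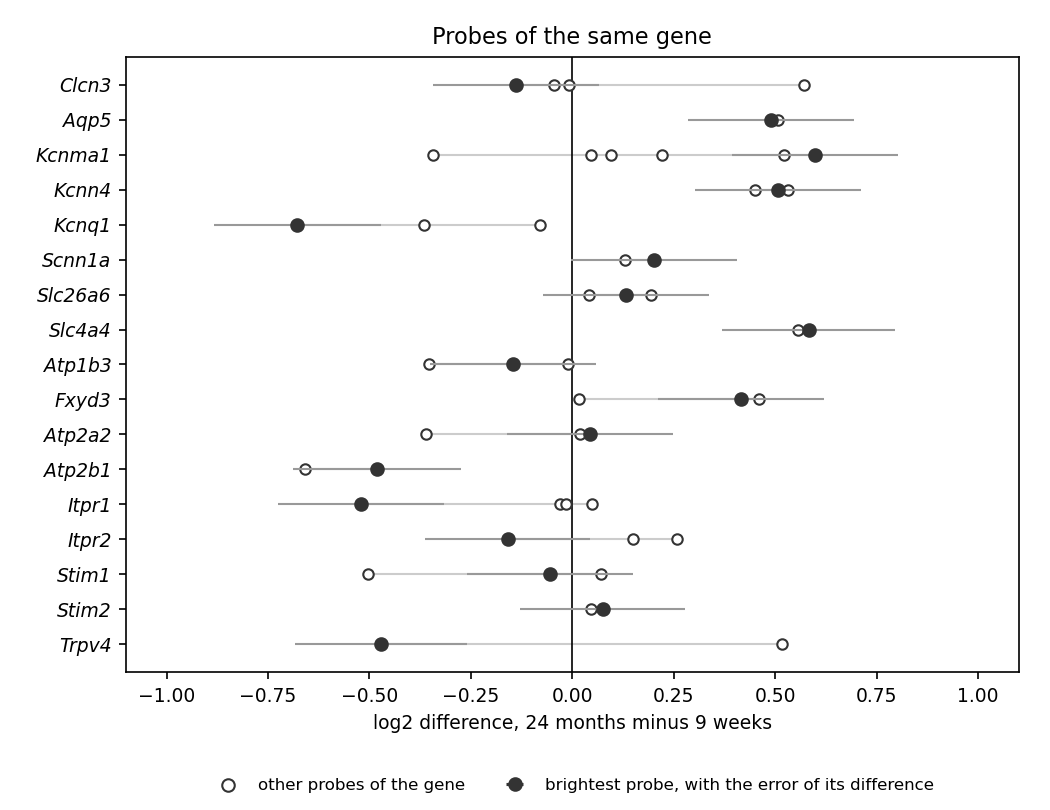
Log2 difference (24 months minus 9 weeks, x axis) for every probe well above background on both arrays, for the 17 genes with more than 1 such probe; filled points are the brightest probe with the software's error, open points the other probes. The probes of Aqp5, Kcnn4, Slc4a4 and Stim2 lie together, and those of Kcnma1, Trpv4, Clcn3 and Itpr1 lie apart.

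A wider list of 139 other transport genes was read in the same way, of which 98 were measured on both arrays. Their median difference was 0.07, 2 passed the threshold upward (2.04%) and 2 downward (2.04%), again near the shares over all genes. Kcnn2, a small-conductance Ca2+-activated K+ channel, gave 38.1 and 101 (difference 1.78 ± 0.25, 3.44-fold higher), but its second probe gave 0.42. Car8, a carbonic anhydrase-related protein that binds the IP3 receptor Itpr1, gave 53.1 and 99.1 (difference 1.27 ± 0.23, 2.41-fold higher). Both are dim, and normexp background correction brought them to 0.96 and 0.80, under the threshold. Mcub, a subunit that restrains the mitochondrial Ca2+ uniporter, gave 221 and 42.4 (difference -2.01 ± 0.23, 4.03-fold lower), and -1.18 under normexp, still past the threshold. Fxyd5, a FXYD protein that modulates the Na+,K+-ATPase, gave 410 and 153 (difference -1.05 ± 0.21, 2.07-fold lower), which fell short of 2-fold after centring on the median (-0.88) and normexp (-0.80). Macrophage markers, 6 of 6 of them, were lower alongside Mcub and Fxyd5 (median -1.21, Lyz2 -1.91, Cd68 -1.06), and so were the 5 fibroblast markers measured on both arrays (median -1.44), and their part in these values was not tested.

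Beyond these, 10 genes of the wider list were measured by 1 array and at background on the other, and for 2 of them the limit passed 2-fold. Over all genes the limit passed 2-fold for 52.6% of the 485 genes that only the aged array measured and for 24.9% of the 2116 that only the young array measured. Car4, a carbonic anhydrase anchored to the outer cell surface and known from capillary endothelium among other cells, gave 219 in the young cells and was not well above background in the aged cells (15.7), which is at least 10.8-fold lower, a limit that was 2.81-fold under normexp and 9.53-fold or more under the other scalings. Of the 9 endothelial markers measured on both arrays, 8 were lower, with a median of -0.55 over the 9, and their part in the Car4 value was not tested. Aqp12, an aquaporin of intracellular membranes known from pancreatic acinar cells, gave 32.5 in the aged cells and was not well above background in the young ones (7.82), which is at least 2.99-fold higher, a limit that dropped to 1.58-fold, under the threshold, with normexp. Of the other K+ channel genes, Lrrc26, the gamma subunit that lets Kcnma1 open in salivary acinar cells, gave 19935 and 19743 (difference 0.36), and is named here for its partner, chosen after its value was seen.

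**Figure D5:**
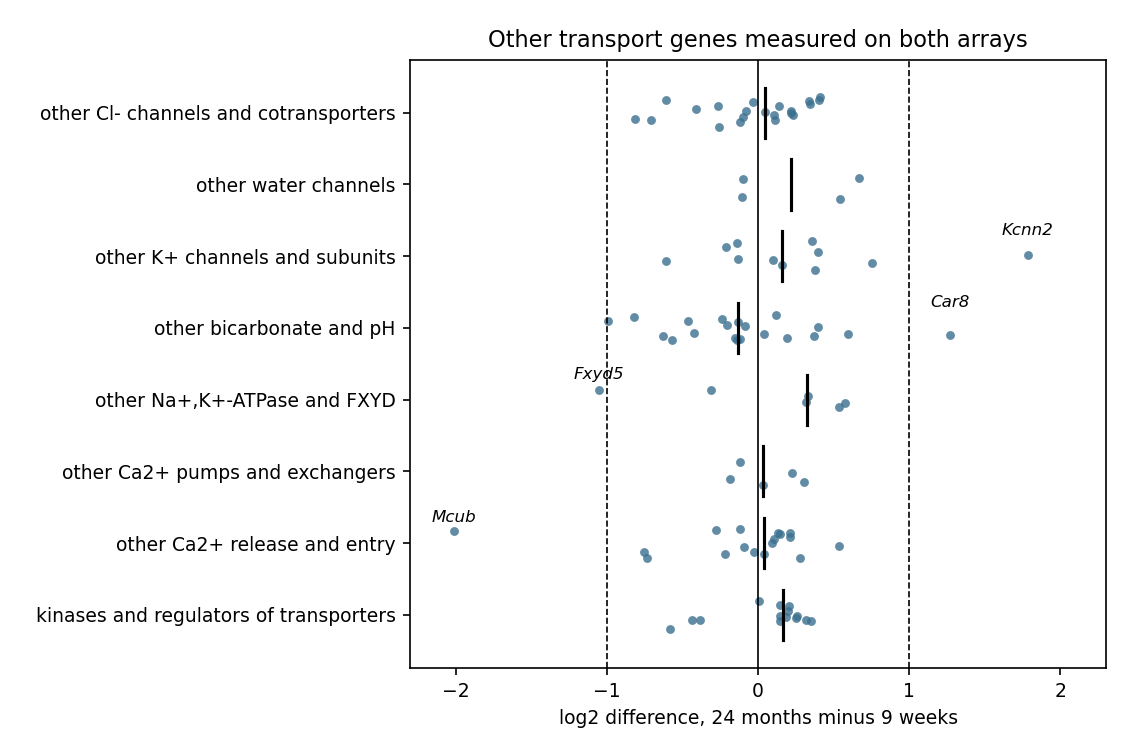
Log2 difference (24 months minus 9 weeks, x axis) of the 98 other transport genes measured on both arrays, by list; points are genes, short black lines the median of each list and dashed lines the 2-fold threshold. Kcnn2 and Car8 lie beyond the threshold on the right, Mcub and Fxyd5 on the left.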

How the data were processed

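RNA of EpCAM-sorted cells was hybridized to 1 array per age, both on the same slide. The authors deposited, per the file headers, the background-corrected intensity of each spot from Agilent Feature Extraction 12.0.3.1, with an error and flags, on NCBI37 (mm9). Their processed table holds the same intensity divided by 1 constant per array, 229 (young) and 176 (aged). Here log2 of the intensity minus log2 of the array's 75th percentile over 59305 non-control spots (256 young, 198 aged) was used. Outlier spots were left out, and the brightest probe by mean log2 signal stood for a gene. A gene above background on 1 array only has a limit, the bright value against the higher of the other array's lowest signal above background and its own value there. The fold threshold was 2, as in the methods. With 1 array per age nothing was tested. Names came from the RefSeq accession for 33767 of 56605 probes and otherwise from the files. The members, the other transport genes and the markers were chosen with earlier results of these data known. The genes named are all 33 members, the other transport genes past 2-fold, and Fxyd2 and Lrrc26, chosen after their values were seen. Loess, quantile and normexp (offset 50) used limma 3.58.1 in R 4.3.3, the rest Python. The scaling by the 75th percentile, the 2-fold call and the limits were tested on simulated data, and the other scalings were not.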

Additional observations from a re-analysis of the deposited data

How the results depend on the processing

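With 1 array per age no replicate could be left out, and no paired analysis was possible because each age has 1 array and no shared replicate number. No member passed 2-fold under 10 of the 12 alternatives. A loess on probes well above background, added after the data were seen, put 1 gene, Slc12a2, past 2-fold lower (-1.03), and with no filter on dim probes 1 gene, Aqp3, passed 2-fold higher. The median difference of the 32 genes, 0.06, was 0.23 after centring on the median, 0.00495 with normexp, -0.053 with a 75th percentile over probes that both arrays measured, -0.18 with quantile normalization, -0.20 with loess, -0.20 with spike-in controls and -0.20 with the added loess. The other alternatives (the authors' table, outlier spots kept, the mean of all kept probes, genes above background on at least 1 array, no filter) left it between 0.06 and 0.08. The sign of 21 members turned under at least 1 alternative and that of 11 under none. The cause was not tested. Signal over background and 1 array per age limit what these arrays show.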
